A study of Mus musculus with 45 samples.

Results

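Among the liver transcripts of mice given repeated oral doses of the dioxin TCDD, 13 genes of 39179 Ensembl genes were at least 2 times their vehicle level at 30 µg/kg and stayed under 1.4 times that level at 1, 3 and 10 µg/kg. These genes were chosen by the measured values themselves. Levels were CPM, the reads per 1000000 reads, scaled by the summed reads on all Ensembl genes of the same liver. A gene entered if its mean was 1 CPM or more at 30 µg/kg and at least 0.2 CPM in vehicle, if the 30 µg/kg mean was at least 2 times the vehicle mean, if each 30 µg/kg liver was above each vehicle liver, and if the means at 1, 3 and 10 µg/kg were each under 1.4 times the vehicle mean. The criteria on the 30 µg/kg, vehicle and minimum levels alone were met by 944 genes, and 931 of these had already reached 1.4 times vehicle at 1, 3 or 10 µg/kg. The 13 were therefore 1.38% of the genes higher at the top dose. They were St14, Hist1h2be, Lum, Csf2rb, Kcnj8, Ssbp4, Adam1a, Npl, St3gal2, Tagln, Gramd1b, Prim1 and Hist2h3c2, and all 13 had more than 4 reads in at least 1 liver, the limit for testing, as did 17464 genes in all.

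The livers came from 45 female C57BL/6 mice in 9 groups of 5. One group received sesame oil alone (vehicle) by gavage, and the other 8 received TCDD in the oil at 30, 10, 3, 1, 0.3, 0.1, 0.03 or 0.01 µg/kg, every 4 days for 28 days. The labels also describe the mice as ovariectomized and the gavage as daily, which the methods do not state, so the hormonal state of every group is uncertain. Reads on genes ranged from 11767284 to 56509899 per liver and from 11767284 to 25625466 at 30 µg/kg. The hepatocyte markers, such as albumin, summed to between 127488 and 158275 CPM in vehicle livers and between 134312 and 177877 CPM at 30 µg/kg, so the defining markers of the labelled tissue were abundant in both groups. Most of that sum was albumin (Alb), with means of 106099 CPM in vehicle and 116120 CPM at 30 µg/kg. The sum therefore hides the other markers. The median log2 fold change of the 12 markers at 30 µg/kg against vehicle was -0.46. The mean of Apoa1 fell from 5882 to 2139 CPM.

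TCDD binds the aryl hydrocarbon receptor, which pairs with ARNT and binds the xenobiotic response element in the promoters of genes such as Cyp1a1. In the mouse liver, sustained activation of the receptor is known for fat accumulation, inflammatory cell infiltration and, with time, fibrosis. Hepatocytes supply most liver RNA, and hepatic stellate cells, sinusoidal endothelium, bile duct cells and resident macrophages supply the rest. The 13 genes have roles in several of these compartments: a protease of epithelia, a matrix proteoglycan, contractile cell genes, a cytokine receptor chain, enzymes of sialic acid, a sterol carrier, and genes of DNA replication and chromatin.

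Membership depended on the scaling of the libraries. The summed-read scale and the trimmed mean of M values (TMM), a scale set so that most genes show no change, differed by 0.21 on the log2 scale in the median fold change of all genes at 30 µg/kg against vehicle. On TMM-scaled CPM all 13 genes were still higher at 30 µg/kg, by between 1.74 and 4.08 times, but only St14, Hist1h2be and Lum kept a ratio of 2 and met the whole rule. Kcnj8 then stood at 1.96 times vehicle, Csf2rb at 1.95 and Ssbp4 at 1.93. Each 30 µg/kg liver stayed above each vehicle liver in 9 of the 13, but not in Ssbp4, Npl, Tagln and Hist2h3c2. For Tagln the lowest 30 µg/kg liver was then at 6.35 CPM and the highest vehicle liver at 6.65 CPM. The TMM-scaled rule selected 6 genes, and its other 3 were Armcx4, Cdt1 and Plcxd1.

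**Figure D1:**
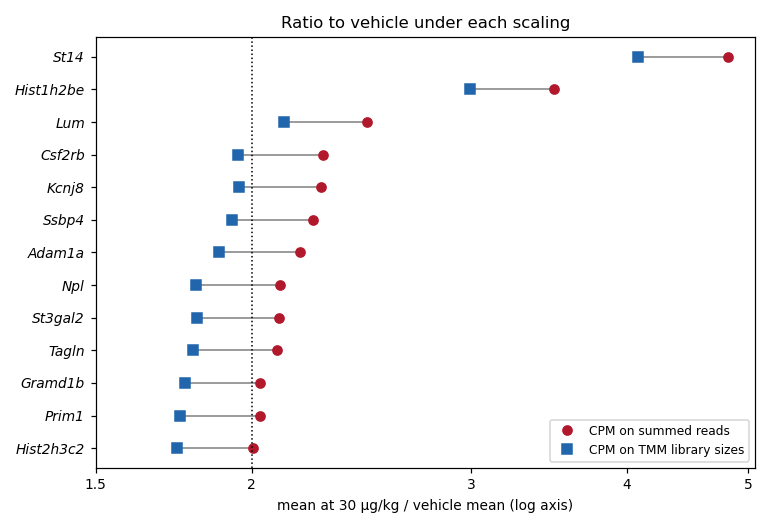
The ratio of the mean at 30 µg/kg to the vehicle mean of each of the 13 genes is drawn on a log axis, as red circles for CPM on summed reads and blue squares for CPM on TMM library sizes, with the threshold of 2 dotted. St14, Hist1h2be and Lum lie right of the threshold on both scales, and the other 10 genes cross it.

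St14 had the largest ratio. It encodes matriptase, a membrane-anchored serine protease of epithelial surfaces that is held in check by the Kunitz-type inhibitors Spint1 and Spint2. The gene lies on chromosome 9 at 31089402 to 31131853 on the minus strand of GRCm38. Its level was 0.547, 0.2404, 0.587, 0.522 and 0.727 CPM in the 5 vehicle livers. It was 0.684, 0.3702, 0.533, 0.6503 and 0.863 CPM at 10 µg/kg and 3.12, 4.44, 1.95, 1.09 and 2.04 CPM at 30 µg/kg. The lowest 30 µg/kg liver, replicate 4, was above each of the other 40 livers, of which the highest was 0.863 CPM. The mean of 2.53 ± 1.29 CPM (SD, n = 5) was 4.82 times the vehicle mean of 0.525 ± 0.178 CPM (SD, n = 5). Its coefficient of variation (CV) at 30 µg/kg, 50.9%, was the highest of the 13, and the level of replicate 2 was 4.06 times that of replicate 4. The gene had between 4 and 15 reads per vehicle liver and between 19 and 66 at 30 µg/kg, so vehicle values carried a large counting error.

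Relatives of each of the 13 were looked up after the genes were known, and were tested with edgeR's quasi-likelihood test over all 17464 genes. A gene was called at a fold change of at least 2 and a Benjamini-Hochberg adjusted p under 0.05, and 8.03% of all genes tested were called higher at 30 µg/kg and 3.42% lower. At 10 µg/kg 3.81% were called higher and 1.73% lower. Of 8 matriptase inhibitors, partners and related proteases, 3 were called higher at 30 µg/kg and 2 at 10 µg/kg. Their median log2 fold change at 30 µg/kg was 0.72, against 0.02 for all genes tested. Spint1 rose from 0.576 ± 0.234 CPM in vehicle to 4.62 ± 1.11 CPM (SD, n = 5 each), with an edgeR log2 fold change of 2.79 ± 0.24 (SE, edgeR adjusted p = 1.933e-12). F2rl1, a protease-activated receptor, was called higher at both doses, with log2 fold changes of 2.02 ± 0.37 at 10 µg/kg and 3.54 ± 0.36 at 30 µg/kg (SE). Tmprss4, a related membrane protease, rose by a log2 fold change of 2.59 ± 0.48 (SE) at 30 µg/kg. The liver proteases Hpn and Tmprss6 had log2 fold changes of -0.08 ± 0.10 and -0.41 ± 0.09 (SE) at 30 µg/kg, neither of them past the fold change of 2.

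Lum was the most abundant of the 13. It encodes lumican, a small leucine-rich proteoglycan that binds collagen fibrils and spaces them, and it is produced in liver by stellate cells and fibroblasts. The gene lies on chromosome 10 at 97565128 to 97572703, plus strand. Its level was 18.6, 13.1, 15.5, 10.6 and 12.8 CPM in vehicle, 15.7, 17.8, 16.9, 18.1 and 23.1 CPM at 10 µg/kg and 35.4, 44.5, 36.8, 20.5 and 37.8 CPM at 30 µg/kg. Replicate 4 at 20.5 CPM was well under the other 4 livers of the top dose, and the 10 µg/kg liver at 23.1 CPM was above it. The mean of 35.0 ± 8.85 CPM was 2.48 times the vehicle mean of 14.1 ± 3.05 CPM (SD, n = 5 each). With 183 to 272 reads per vehicle liver, it was the best measured of the 13.

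Tagln encodes transgelin, an actin-binding protein of smooth muscle and myofibroblasts. It lies on chromosome 9 at 45929619 to 45936058, minus strand, and 108 of its exonic bases overlap Pcsk7 on the other strand. It was measured at 6.43, 3.43, 4.05, 4.59 and 4.07 CPM in vehicle and 10.1, 13.7, 8.94, 6.56 and 7.99 CPM at 30 µg/kg. Its lowest top-dose liver was only 1.02 times its highest vehicle liver, close to the edge of the rule. The ratio of means was 2.10, and 3 of the 40 other livers were at or above the lowest 30 µg/kg liver.

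Kcnj8 encodes the pore-forming subunit of the ATP-sensitive potassium channel of pericytes and vascular smooth muscle. It lies on chromosome 6 at 142564837 to 142571614, minus strand. Its level was 3.76, 2.16, 2.29, 2.96 and 3.20 CPM in vehicle. At 10 µg/kg it was 2.16, 1.904, 1.999, 2.93 and 2.62 CPM and at 30 µg/kg 6.44, 7.94, 6.09, 4.72 and 7.48 CPM. Each 30 µg/kg liver was above each of the other 40 livers. Its mean was 0.81, 0.80 and 0.81 of vehicle at 1, 3 and 10 µg/kg and 2.27 times vehicle at 30 µg/kg, and the ratio of the 30 µg/kg mean to the 10 µg/kg mean was 2.81, after 4.08 for St14 and 3.39 for Hist1h2be.

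The stellate and mural cell relatives of these genes did not share 1 pattern. Of 8 tested small leucine-rich proteoglycans other than Lum, none was called at 10 or 30 µg/kg by edgeR. Decorin (Dcn), at 178 ± 29.04 CPM in vehicle and 287 ± 19.8 CPM at 30 µg/kg (SD, n = 5 each), had a log2 fold change of 0.48 ± 0.14 (SE, edgeR adjusted p = 0.007858), under the fold change of 2. Biglycan (Bgn) had 0.75 ± 0.15 (SE, edgeR adjusted p = 0.0001909) and was already at 0.62 ± 0.15 at 10 µg/kg. For Tagln, 1 of 9 calponin family and contractile genes was called, namely Tagln2, with a log2 fold change of 1.26 ± 0.15 (SE, edgeR adjusted p = 1.499e-08). Smooth muscle actin (Acta2), from 1.37 ± 0.542 CPM in vehicle to 2.63 ± 1.03 CPM, had 0.72 ± 0.35 (SE, edgeR adjusted p = 0.1257). Abcc9, the regulatory subunit that pairs with the Kcnj8 product in pericytes, had a log2 fold change of -0.02 ± 0.15 (SE, edgeR adjusted p = 0.9235) at 30 µg/kg.

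Promoter sequences were looked up because the receptor that TCDD binds acts at a short DNA element. Of the 13 genes, 7 matched entries in the RefSeq promoter table (GRCm38.p6), with 8 entries in all, and the 250 bases before each start site were searched on both strands for the core of the xenobiotic response element (GCGTG), for CCAAT, which is common in histone and cell cycle promoters, for TATAAA, and for the CArG box, the motif of serum response factor. GCGTG was found in 3 of the 8 entries, those of Kcnj8, Ssbp4 and Adam1a, and in 28.2% of 32851 promoters of the same length. CCAAT was found in 5 of the 8 and in 33.8% of all. Hist1h2be was the gene with more than 1 entry, and each of its entries held CCAAT 3 times, so the 5 are not all separate genes. TATAAA, found in 12.4% of all, and the CArG box, found in 1.47% of all, were in none of the 8. A match is only a run of letters, and no binding was measured. The upstream sequences below are those of Kcnj8, Ssbp4 and Hist1h2be. Kcnj8 is the gene with a GCGTG whose 30 µg/kg livers were all above the other 40. Ssbp4 held GCGTG and CCAAT together, as did Adam1a, whose sequence is not printed. In Hist1h2be CCAAT was found 3 times, as it was in Ssbp4. The sequences are written 5′ to 3′ along the gene's strand, with the capitals marking GCGTG or CCAAT, or either one read on the other strand (CACGC and ATTGG). The motifs do not overlap. The windows of Ssbp4, Adam1a and Npl, and the Hist1h2be window not printed, lie inside the spans of GENCODE gene models that start further upstream.
Kcnj8 (chr6:142571615-142571864, minus strand): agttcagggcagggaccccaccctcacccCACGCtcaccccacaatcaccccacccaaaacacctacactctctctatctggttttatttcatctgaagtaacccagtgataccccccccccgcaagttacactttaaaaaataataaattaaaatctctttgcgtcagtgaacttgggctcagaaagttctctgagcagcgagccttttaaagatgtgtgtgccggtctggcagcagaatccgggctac
Ssbp4 (chr8:70608315-70608564, minus strand): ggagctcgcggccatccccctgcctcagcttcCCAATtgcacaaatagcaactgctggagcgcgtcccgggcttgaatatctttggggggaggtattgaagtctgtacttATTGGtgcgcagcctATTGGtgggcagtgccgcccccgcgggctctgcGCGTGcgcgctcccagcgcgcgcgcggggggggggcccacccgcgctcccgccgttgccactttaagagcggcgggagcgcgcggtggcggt
Hist1h2be (chr13:23621095-23621344, minus strand, listed as H2bc6): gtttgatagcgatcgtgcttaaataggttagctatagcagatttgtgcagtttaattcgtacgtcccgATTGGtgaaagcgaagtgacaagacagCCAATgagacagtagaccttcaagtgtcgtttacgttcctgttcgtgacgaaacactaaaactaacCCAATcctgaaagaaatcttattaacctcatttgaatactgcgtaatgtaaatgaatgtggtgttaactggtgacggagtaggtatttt

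Csf2rb encodes the shared signalling chain of the receptors for granulocyte-macrophage colony-stimulating factor, interleukin-3 and interleukin-5, carried by myeloid cells. It lies on chromosome 15 at 78325752 to 78353847, plus strand. It was measured at 4.24, 4.09, 3.93, 3.66 and 4.36 CPM in vehicle, 6.26, 4.44, 5.66, 5.71 and 6.07 CPM at 10 µg/kg and 9.35, 12.98, 10.3, 5.06 and 8.58 CPM at 30 µg/kg. The vehicle livers were close together, with a CV of 6.80%, whereas at 30 µg/kg replicate 4 fell inside the range of the 10 µg/kg livers and 12 of the other 40 livers were at or above it. The ratio of means was 2.28. One of those livers, replicate 5 of the 0.01 µg/kg group, held 9.36 CPM. The neighbouring copy Csf2rb2, whose sequence is near identical in places so that the split of reads between the pair is uncertain, rose earlier and further, with log2 fold changes of 2.05 ± 0.33 at 10 µg/kg and 2.85 ± 0.33 at 30 µg/kg (SE, edgeR adjusted p = 4.93e-09). Csf2ra, the partner chain for granulocyte-macrophage colony-stimulating factor, rose by a log2 fold change of 1.24 ± 0.31 at 30 µg/kg (SE, edgeR adjusted p = 0.001851). Of 7 listed partners and ligands 3 were tested, and these 2 were called higher at 30 µg/kg. The third, Il3ra, had a log2 fold change of 0.78 ± 0.26 (SE, edgeR adjusted p = 0.01872), under the fold change of 2.

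**Figure D2:**
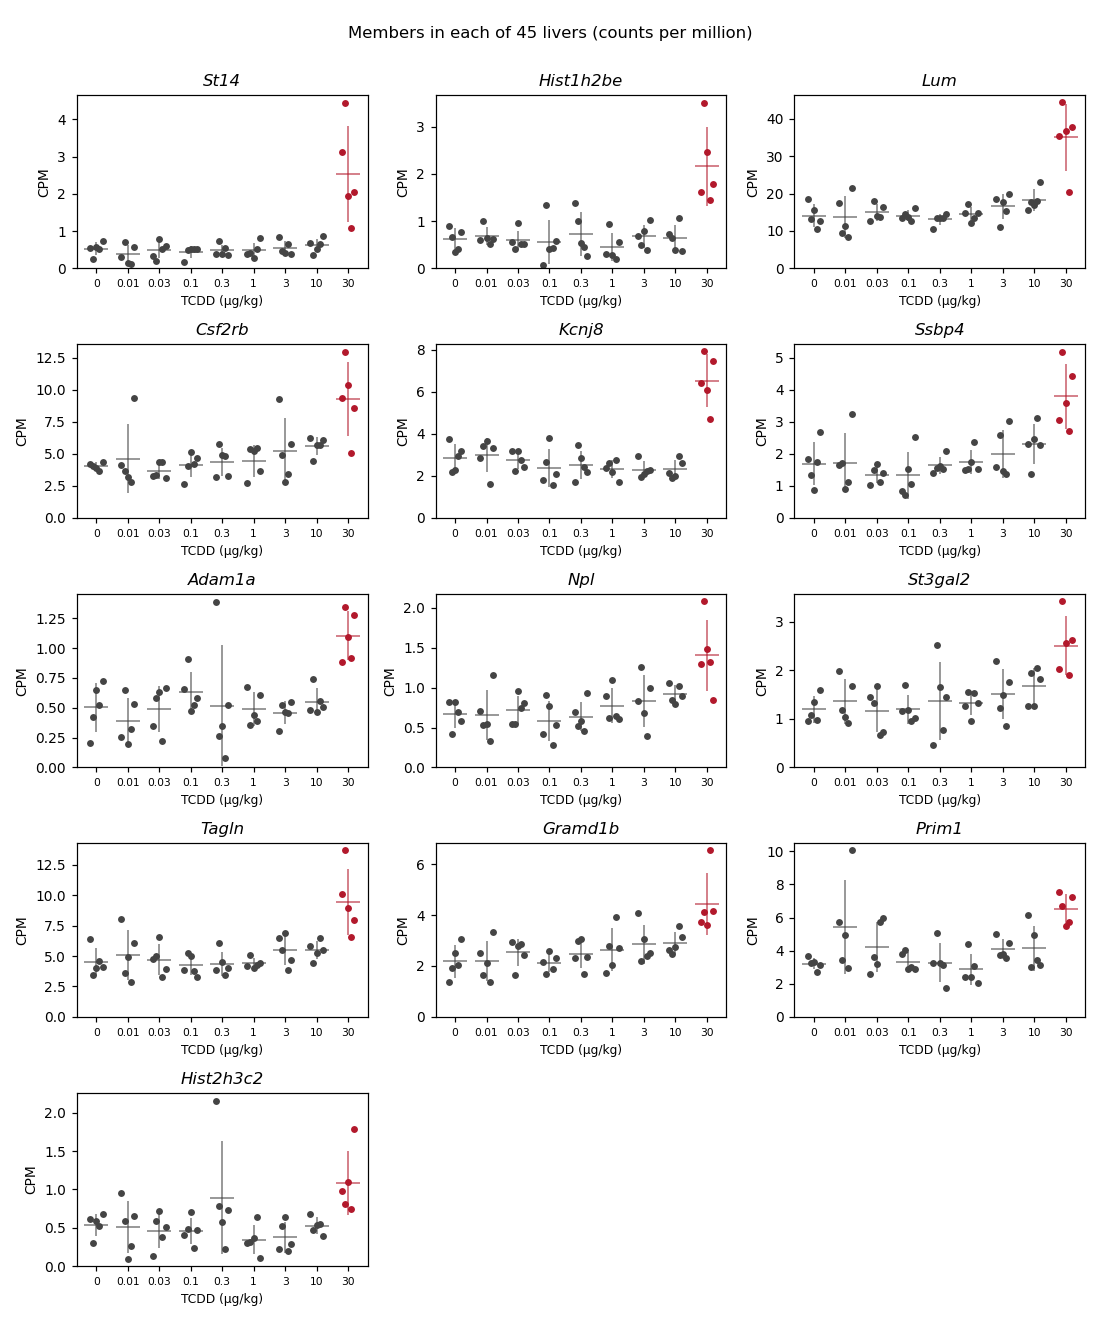
Each panel shows 1 of the 13 genes in all 45 livers, as CPM on a linear axis from 0 against the TCDD dose, with 5 points a group and a bar for the mean and its SD (30 µg/kg in red). The 30 µg/kg livers of St14, Hist1h2be and Kcnj8 lie above each other liver, whereas for each of the other 10 genes at least 2 livers of lower doses reach the lowest 30 µg/kg liver.

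Prim1 encodes the catalytic subunit of DNA primase, which makes the RNA primers for DNA synthesis. It lies on chromosome 10 at 128015168 to 128030037, plus strand. Its level was 3.69, 3.25, 3.29, 2.73 and 3.15 CPM in vehicle, 6.16, 3.01, 4.93, 3.44 and 3.13 CPM at 10 µg/kg and 7.53, 6.73, 5.46, 5.75 and 7.22 CPM at 30 µg/kg. Its 30 µg/kg livers were the most alike of the 13 genes, with a CV of 13.8%. The ratio of means was 2.03. Replicate 5 at 0.01 µg/kg held 10.1 CPM, more than any 30 µg/kg liver, and in that liver the 45 genes of the mitotic list summed to 149 CPM, against 42.1 to 49.1 CPM in vehicle livers. Replicate 4 at 0.03 µg/kg had a mitotic sum of 185 CPM with 5.71 CPM of Prim1. Replicate 4 at 30 µg/kg had a mitotic sum of 66.1 CPM, the lowest of its group, with 5.75 CPM of Prim1. In each of these livers both levels were above the highest vehicle liver, at 49.1 CPM for the sum and 3.69 CPM for Prim1. Whether the 2 levels go together over all livers was not tested. The other subunits of the primase complex, Prim2, Pola1 and Pola2, had log2 fold changes of 0.30, 0.07 and -0.00 at 30 µg/kg, and none was called.

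Hist1h2be encodes a histone of the H2B family, and Hist2h3c2 a histone of the H3 family. Such replication-dependent histones are made mainly in S phase and largely lack the poly(A) tail by which many RNA libraries are selected. Hist1h2be lies on chromosome 13 at 23583670 to 23621124, minus strand, in a gene model that shares 496 exonic bases with Hist1h1e. It was measured at 0.889, 0.661, 0.352, 0.406 and 0.776 CPM in vehicle, 0.719, 0.635, 0.3998, 1.07 and 0.359 CPM at 10 µg/kg and 1.61, 3.497, 2.46, 1.44 and 1.78 CPM at 30 µg/kg. Each 30 µg/kg liver was above each of the other 40, and the ratio of means was 3.497. It rested on 6 to 16 reads per vehicle liver. Hist2h3c2, on chromosome 3 at 96238108 to 96239127, minus strand, had 0.616, 0.3005, 0.587, 0.522 and 0.679 CPM in vehicle and 0.987, 0.807, 1.09, 0.748 and 1.78 CPM at 30 µg/kg, a ratio of 2.004. With 5 to 14 reads per vehicle liver it was among the least certain of the 13, and replicate 1 at 0.3 µg/kg held 2.15 CPM, above each 30 µg/kg liver. Histone genes have near-identical copies, and multiply aligned reads are not in the counts, so the levels of single histone genes are uncertain.

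Of 60 other histone cluster genes, 16 were tested, 8 were called higher at 30 µg/kg and none at 10 µg/kg. Their median log2 fold change at 30 µg/kg was 1.38, against 0.02 for all genes tested. The linker histone Hist1h1d had a mean of 0.155 ± 0.132 CPM in vehicle, 0.627 ± 0.335 CPM at 10 µg/kg and 2.60 ± 1.44 CPM at 30 µg/kg (SD, n = 5 each), with an edgeR log2 fold change of 3.76 ± 0.70 (SE, edgeR adjusted p = 5.571e-05). The summed level of the class was mostly that of Hist1h2bc and Hist1h1c, and neither of them was called. Hist1h2bc had means of 75.6 ± 14.9 CPM in vehicle and 99.8 ± 15.4 CPM at 30 µg/kg (SD, n = 5 each). Hist1h1c had 37.5 ± 6.93 CPM and 59.8 ± 3.75 CPM. The sum therefore says little about the called genes. Summed over the class, without Hist1h2be and Hist2h3c2, the 30 µg/kg livers held 163 to 190 CPM and the vehicle livers 101 to 150 CPM. The groups overlapped, since 3 livers of lower doses were inside the range of the 30 µg/kg livers, namely replicate 2 at 0.01 µg/kg with 165 CPM, replicate 3 at 0.03 µg/kg with 167 CPM and replicate 1 at 0.3 µg/kg with 180 CPM. Replicate 1 at 0.3 µg/kg was also the liver highest in Hist1h2be, Hist2h3c2 and Adam1a in its group.

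Ssbp4, Adam1a, Npl, St3gal2 and Gramd1b made up the rest. Ssbp4 encodes a single-stranded DNA-binding protein of the family that partners the LDB cofactors. It lies on chromosome 8 at 70597490 to 70608872, minus strand. It had 1.85, 1.32, 0.880, 1.74 and 2.67 CPM in vehicle and 3.06, 5.18, 3.59, 2.703 and 4.42 CPM at 30 µg/kg, a ratio of 2.24, and its lowest top-dose liver was 1.01 times its highest vehicle liver. The related Ssbp2 rose from 1.01 ± 0.267 CPM to 4.69 ± 0.549 CPM (SD, n = 5 each), with an edgeR log2 fold change of 2.01 ± 0.19 (SE, edgeR adjusted p = 3.507e-11), and was called at 10 µg/kg as well. It was the 1 gene called higher of 4 related genes and LDB partners tested. Ssbp3 went the other way, from 39.2 ± 5.48 CPM to 27.9 ± 3.77 CPM (SD, n = 5 each), with a log2 fold change of -0.70 ± 0.10 (SE, edgeR adjusted p = 2.489e-07), under the fold change of 2. Adam1a, a fertilin subunit of sperm, was at 0.504 ± 0.204 CPM in vehicle and 1.10 ± 0.206 CPM at 30 µg/kg (SD, n = 5 each). Adam1a lies on chromosome 5 at 121518576 to 121545482, minus strand. In GENCODE M21, 1805 of its exonic bases are shared with Mapkapk5, so its level is uncertain.

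Npl encodes N-acetylneuraminate lyase, which breaks down sialic acid, and St3gal2 encodes a sialyltransferase that caps glycans with it. Npl lies on chromosome 1 at 153503015 to 153550045, minus strand, and had 0.821, 0.421, 0.821, 0.697 and 0.582 CPM in vehicle, 1.06, 0.846, 0.7996, 1.02 and 0.898 CPM at 10 µg/kg and 1.298, 2.08, 1.48, 1.32 and 0.8498 CPM at 30 µg/kg. Replicate 5 at 30 µg/kg was within the range of the 10 µg/kg livers, and the ratio of means was 2.11. St3gal2 lies on chromosome 8 at 110919922 to 110972480, plus strand, and went in its means from 1.195 ± 0.274 CPM in vehicle through 1.67 ± 0.379 CPM at 10 µg/kg to 2.51 ± 0.607 CPM at 30 µg/kg (SD, n = 5 each). That 10 µg/kg mean was 1.3999 times vehicle, just inside the limit of 1.4. Other ST3Gal enzymes were not called higher, and St3gal6 fell from 6.78 ± 1.42 CPM in vehicle to 3.28 ± 0.603 CPM (SD, n = 5 each, edgeR adjusted p = 0.0004272). Of 8 further enzymes of sialic acid metabolism, 0 were called by edgeR. The sialidase Neu1 was higher in its means, 34.7 ± 2.03 CPM in vehicle and 73.5 ± 3.65 CPM at 30 µg/kg (SD, n = 5 each), with a log2 fold change of 0.87 ± 0.12 (SE, edgeR adjusted p = 2.382e-07), under the fold change of 2.

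Gramd1b encodes a sterol carrier of the endoplasmic reticulum that takes up cholesterol from the plasma membrane. It lies on chromosome 9 at 40293233 to 40531383, minus strand. Its 30 µg/kg livers held 3.74, 4.102, 3.59, 6.56 and 4.16 CPM and its vehicle livers 1.37, 1.92, 2.52, 2.03 and 3.05 CPM, a ratio of 2.03. Replicate 4 held the highest level, in contrast to most of the other 12 genes. The related Gramd1c had a log2 fold change of 0.77 ± 0.12 (SE, edgeR adjusted p = 1.868e-06), under the fold change of 2, with 66.1 ± 6.50 CPM in vehicle and 131 ± 13.8 CPM at 30 µg/kg (SD, n = 5 each). Gramd1a, the other relative tested, had -0.42 ± 0.15 (SE, edgeR adjusted p = 0.03437).

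**Figure D3:**
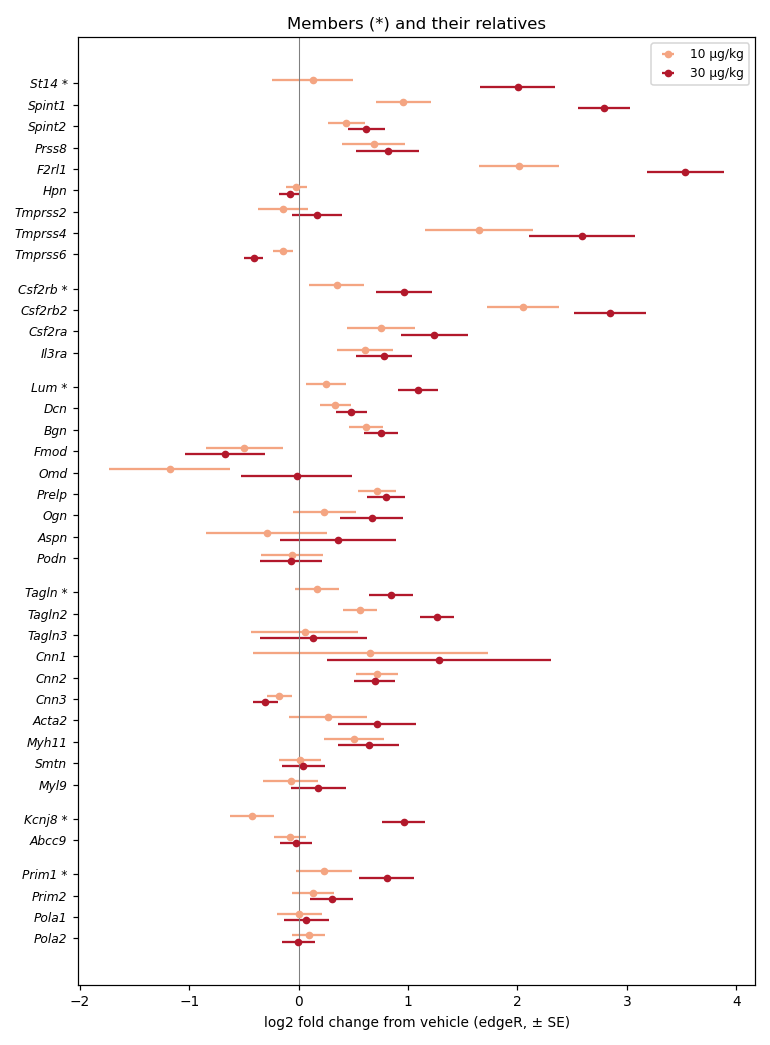
Log2 fold changes from vehicle at 10 µg/kg (light) and 30 µg/kg (dark), from edgeR with their SE, are shown for 6 of the 13 genes (starred) and their tested relatives. Csf2rb2, F2rl1 and Tmprss4 were already high at 10 µg/kg, while Abcc9, Pola1 and Pola2 lay at 0 within 1 SE at 30 µg/kg.

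The median of the 13 genes stayed near vehicle up to 1 µg/kg. The median ratio of means to vehicle was 1.02 at 0.01 µg/kg, 0.97 at 0.03, 0.94 at 0.1, 1.02 at 0.3 and 0.98 at 1 µg/kg. Single genes departed from it, with Prim1 at 1.68 times vehicle at 0.01 µg/kg and Hist2h3c2 at 1.65 times vehicle at 0.3 µg/kg, and in both groups the highest liver was above each 30 µg/kg liver. The median was 1.18 at 3 µg/kg and 1.28 at 10 µg/kg, where 11 of the 13 were above vehicle, and 2.19 at 30 µg/kg. The values at 1, 3, 10 and 30 µg/kg were used to choose the genes and are a description. The 30 µg/kg livers were all above the 10 µg/kg livers in 7 of the 13, where 1.83% of genes tested were, and were above all 40 other livers in 3 (St14, Hist1h2be and Kcnj8), where 1.04% of genes tested were. The rule used these livers, so nothing is read from either count. In the edgeR fit of 30 µg/kg against vehicle, 3 of the 13 were called (St14, Lum and Hist1h2be), against 8.03% of genes tested, and the rule again used that contrast. The median log2 fold change of the 13 was 0.87 in that fit, with a range of 0.76 to 2.004.

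**Figure D4:**
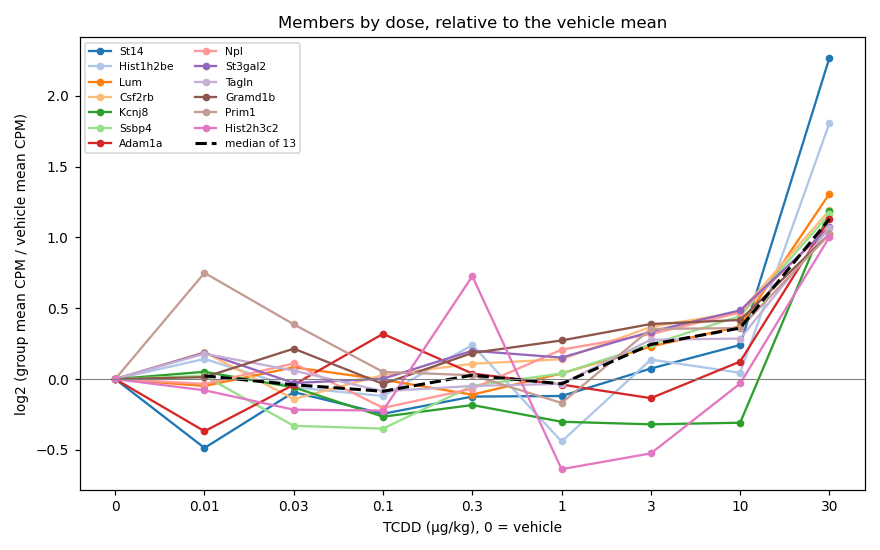
The log2 ratio of each group's mean CPM to the vehicle mean is drawn for the 13 genes against dose, with the median of the 13 dashed. The median stays between -0.09 and 0.03 from 0.01 to 1 µg/kg and reaches 0.36 at 10 µg/kg and 1.13 at 30 µg/kg, where every line ends at or above the level of a ratio of 2.

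The doses of 0.01, 0.03, 0.1 and 0.3 µg/kg did not enter the rule, although the vehicle mice did. None of the 13 genes was called by edgeR against vehicle at any of these doses. Of all genes tested, 0% were called at 0.01 µg/kg, 0.0286% at 0.03, 0.0172% at 0.1 and 0.229% at 0.3 µg/kg. At an unadjusted p under 0.05, 1 of the 13 passed at 0.01 µg/kg, where 10.1% of all genes tested did. At 0.03, 0.1 and 0.3 µg/kg 0 of the 13 passed, against 11.7%, 5.15% and 10.5% of all genes tested. DESeq2 also called 0 of the 13 at all 4 doses. The gene that passed was Prim1, with a log2 fold change of 0.75 ± 0.25 (SE, edgeR adjusted p = 0.3088). The comparison of 0.3 with 0.01 µg/kg shares no mouse with the rule. It too called 0 of the 13 by edgeR and by DESeq2, and edgeR called 0.189% of genes tested. At an unadjusted p under 0.05, 1 of the 13 passed, and so did 6.43% of all genes tested. At 0.03, 0.1 and 0.3 µg/kg the edgeR log2 fold changes of the 13 lay between -0.36 and 0.62, with standard errors that varied by gene, and a p that misses the threshold does not show that these levels were the same.

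Replicates carry numbers in the order in which the samples are listed. Among the 5 livers of the top dose, replicate 2 was highest in 10 of the 13 genes, against 30.9% of all genes tested. Replicate 4 was lowest in 9 of the 13, against 32.4% of all genes tested, and replicate 5 was lowest in 1, against 31.1%. The rule used these livers, so the counts are a description and nothing is read from them. Of the 5 livers, replicate 2 had the largest TMM factor (1.18) and replicate 4 the smallest (1.03), and CPM here is not scaled by it. Relative to the median of the 5 livers, the median over the 13 genes was 1.33 for replicate 2 and 0.753 for replicate 4, and 0.981, 1.00 and 1.02 for replicates 1, 3 and 5. Among the 931 genes that had reached 1.4 times vehicle at a lower dose, which met the same criteria at 30 µg/kg, replicate 2 was highest in 37.7%, near its share of all genes, and replicate 4 was lowest in 64.2%. The CV at 30 µg/kg ranged from 13.8% to 50.9%, with a median of 27.4%, and in vehicle from 6.80% to 40.5%, with a median of 25.5%. For the 931 genes the median CV at 30 µg/kg was 23.5%.

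Marker lists of liver cell types, hepatocytes included, differed between the same livers. Replicate 4 was lowest in the summed level of 15 of 17 lists, and replicate 2 was highest in 9. Kupffer cell and macrophage markers (14 genes) summed to 229 to 380 CPM in vehicle livers and to 233 to 749 CPM at 30 µg/kg, with replicate 4 at 0.334 of the median of its group. Stellate cell and myofibroblast markers (20 genes, of which Lum and Tagln are 2) summed to 300 to 441 CPM in vehicle and 607 to 1021 CPM at 30 µg/kg, with replicate 2 at 1.26 and replicate 4 at 0.747 of the median. Smooth muscle and pericyte markers (9 genes, Kcnj8 among them) summed to 37.3 to 54.4 CPM in vehicle, 45.9 to 56.1 CPM at 10 µg/kg and 54.4 to 75.5 CPM at 30 µg/kg. Most of that sum was Rgs5, with means of 36.6 CPM in vehicle and 47.9 CPM at 30 µg/kg and an edgeR log2 fold change of 0.17 ± 0.18 (SE). Kcnj8, chosen for its level at 30 µg/kg, added means of 2.87 CPM in vehicle and 6.53 CPM at 30 µg/kg. In 9 of the 17 lists each 30 µg/kg liver was above each vehicle liver, as were 3130 of the 39179 single genes. The smooth muscle and pericyte list was among the 9 by a narrow margin. Its lowest 30 µg/kg liver held 54.4002 CPM and its highest vehicle liver 54.3799 CPM. This list and the stellate list hold genes that the rule chose for the same separation, so nothing is read from the count. No gene of the Kupffer, stellate or smooth muscle lists was at 0 in all vehicle and 30 µg/kg livers, whereas the neutrophil marker Ly6g was. The part of these cells in the levels of the 13 genes was not tested. In bulk liver, fewer cells of a type and less RNA per cell cannot be told apart.

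**Figure D5:**
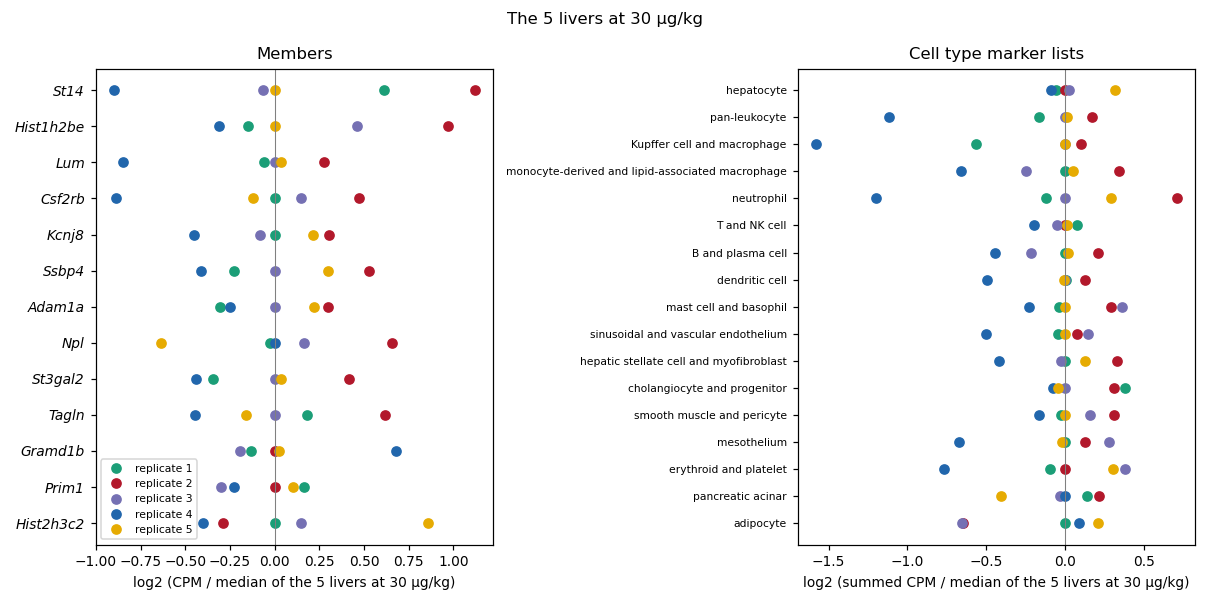
The left panel shows each of the 13 genes, and the right panel the summed CPM of each of 17 cell type marker lists, in the 5 livers at 30 µg/kg as log2 of the level over the median of the 5, with colours for the replicates. Replicate 2 lies right of the median and replicate 4 left of it in most rows. Replicate 4 lies right of the median for Gramd1b and the adipocyte list, and on it for Npl and the pancreatic acinar list.

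Gene lists for these functions were counted with the same calls, without a test of the list. Of 51 extracellular matrix and remodelling genes, 26 were called higher and 0 lower at 30 µg/kg, and 10 were called higher at 10 µg/kg. Lum, which was chosen on the 30 µg/kg contrast, is 1 of the 26. Collagen I (Col1a1) rose from 5.80 ± 1.54 CPM in vehicle through 16.6 ± 2.98 CPM at 10 µg/kg to 36.01 ± 16.5 CPM at 30 µg/kg (SD, n = 5 each), and so passed the fold change of 2 at the lower dose (log2 fold change 1.397 ± 0.33, SE, edgeR adjusted p = 0.001981). Of 20 stellate and myofibroblast genes 8 were called higher at 30 µg/kg, Lum again among them, and of 8 tested smooth muscle and pericyte genes 0 were called by edgeR. Of 41 genes of DNA replication and the G1 to S transition, Prim1 among them, 10 were called higher and 2 lower at 30 µg/kg. Of 45 mitotic genes, 31 were called higher at 30 µg/kg and 11 at 10 µg/kg. Mcm5, a subunit of the replicative helicase, rose by a log2 fold change of 1.77 ± 0.47 at 30 µg/kg (SE, edgeR adjusted p = 0.003609). Of 28 genes of inflammatory cytokines and their receptors 10 were called higher and 1 lower, and of 47 genes of the cytoskeleton 10 were called higher and 2 lower. Of 18 targets of the receptor that TCDD binds, 16 were called higher at 30 µg/kg and 15 at 10 µg/kg, and none of the 13 genes is in that list. The rule left out genes at 1.4 times vehicle or more at 10 µg/kg, so the 15 could hardly have entered. Nothing is read from their absence.

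Several values lay at the edges of the rule. Just inside the ratio of 2 were Hist2h3c2 (2.004) and Prim1 (2.03), and just outside were Timeless (1.99), Synpo (1.99) and Smo (1.98). Just inside the limit of 1.4 at the middle doses were St3gal2 (1.3999) and Csf2rb (1.39), and just outside were Pdgfra (1.43), Dnaja4 (1.43) and Nipa1 (1.43). Afp, the fetal liver protein, and Setbp1 missed only the separation from vehicle, with a lowest top-dose liver 0.983 and 0.969 times the highest vehicle liver. Without replicate 4 of the 30 µg/kg group the same rule selected 41 genes, 12 of them among the 13. With each of the other 24 vehicle, 1, 3, 10 or 30 µg/kg livers left out in turn, it selected between 11 and 19 genes.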

How the data were processed

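The 45 livers, 5 per group, were grouped by their dose labels. Per the methods, adaptors were removed and reads were aligned to GRCm38 with Bowtie and TopHat 1.4.1 and counted by the authors on Ensembl genes with HTSeq 0.6.1. The deposited values are raw counts per gene, and reads aligning to more than 1 place were left out. The strand setting is not given in the sources used here, so reads of overlapping genes cannot be told apart. Random samples were pooled for sequencing, and the pools are not in the labels. Rows for reads not on a gene were left out (no-feature reads were 9.11% to 17.1% of unique reads). The 5 mice of a group are separate animals, numbered in the order in which the samples are listed, so a number shared by groups pairs no mice.

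CPM used reads summed over Ensembl genes. edgeR 4.0.16 in R 4.3.3 tested genes with more than 4 reads in any liver, with TMM normalization, 1 coefficient per group, the quasi-likelihood test and Benjamini-Hochberg adjustment. DESeq2 1.42.0, other scalings, filters and thresholds, and each liver left out in turn were tried as alternatives. Symbols matched 37607 genes, and positions and exon overlaps are from GENCODE M21. The methods name another annotation release for the counts, and the overlaps were not checked in it. Fewer than 20 reads per vehicle liver on average lay behind 5 of the 13 genes, whose values carry the largest counting error.

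All 13 genes were named, for their ratio, level, variation or position at a threshold. The genes and lists were chosen with earlier results of these data known, and the relatives of the 13 after these were known.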

Additional observations from a re-analysis of the deposited data

Results flagged for a closer look

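In 7 of 117 sets of 5 livers (13 genes in 9 groups), 1 liver lay further from the nearest other than Dixon's critical value of 0.71 allows. Chance flags about 1 in 20 sets, and 7 of 117 is 5.98%. In the 0.01 µg/kg group, replicate 5 held 9.36 CPM of Csf2rb (others 2.80 to 4.15), from 444 reads, and replicate 2 held 0.999 CPM of Hist1h2be (others 0.520 to 0.645). At 0.03 µg/kg, replicate 3 held 0.954 CPM of Hist1h2be, from 12 reads. At 0.1 µg/kg, replicate 1 held 0.165 CPM of St14, from 2 reads. At 0.3 µg/kg, replicate 1 held 2.15 CPM of Hist2h3c2 (others 0.229 to 0.781), from 28 reads, and 10.5 CPM of Lum (others 13.5 to 14.6). At 30 µg/kg, replicate 4 held 6.56 CPM of Gramd1b (others 3.59 to 4.16), from 114 reads.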

How the results depend on the processing

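The number of genes selected depended on the scaling and on each threshold. Against 13 genes, CPM on TMM library sizes gave 6 and CPM on DESeq2 size factors 6, with 3 of the 13 in each (St14, Hist1h2be and Lum). A stricter upper limit at the middle doses gave 6 genes and a limit of 1.6 gave 76. A ratio of at least 1.5 at 30 µg/kg gave 239 genes and of at least 3 gave 2. Leaving out 1 liver at a time gave between 11 and 41 genes, of which 8 to 13 were among the 13, and the 41 came without 30 µg/kg replicate 4. A minimum of 2 CPM at 30 µg/kg kept 10 of the 13, and dropping the vehicle minimum kept all 13 and added none. The edgeR calls of the 13 at 30 µg/kg against vehicle went from 3 to 12 with no normalization beyond library size and to 11 at any fold change. Leaving out 1 liver at a time gave between 3 and 6, with 5 without vehicle replicate 1, 6 without vehicle replicate 5 and 5 without 30 µg/kg replicate 4. The calls at 0.01, 0.03, 0.1 and 0.3 µg/kg against vehicle, and of 0.3 against 0.01 µg/kg, were 0 under each alternative run. On TMM-scaled CPM, 30 µg/kg replicate 2 was highest in 8 of the 13 genes and replicate 4 lowest in 7. No paired analysis was possible because the labels give no replicate numbers, and those used here only follow the order in which the samples are listed.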
